A study of Mus musculus with 4 samples.

Results

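The 10 genes described here encode a growth factor ligand, Fgf4, the FGF receptors Fgfr1 and Fgfr2, and the cell-surface heparan sulfate system that FGF signalling draws on. That system is represented by the glypicans Gpc3 and Gpc4, the syndecans Sdc1 and Sdc4, the chain-building enzymes Ext1 and Ext2, and the chain-sulfating enzyme Ndst1. They were selected by gene symbol, and all 10 were found among the 25170 genes of the deposited ribosome profiling table. The symbols were proposed with earlier results of these data in view, among them the difference between PD and DMSO, so their values are a description and no test of that difference is drawn from them.

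Ribosome profiling sequences the short RNA pieces that ribosomes protect from nuclease, so the footprint level of a gene follows the amount of its mRNA together with the ribosomes on it. The cells were wild-type E14, a mouse embryonic stem cell line from the inner cell mass, grown in serum with leukemia inhibitory factor on gelatin. PD cells, with 2 libraries, spent 3 passages in 1 µM of a compound that the labels call only PD, through which the series asks how the kinase Mek acts on expression after transcription. DMSO cells, with 2 libraries, spent 3 passages in the solvent alone. The labels do not say whether replicates were separate cultures, so a p-value reflects library-to-library spread alone and that spread could be technical. No RNA-seq of the same cells was used here, so a change in mRNA and a change in ribosome loading cannot be told apart.

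FGFs bind receptor tyrosine kinases on the cell surface, and heparan sulfate, a sulfated sugar chain, joins ligand and receptor into the signalling complex. The activated receptor passes its signal through adaptors to the RAS, RAF, MEK and ERK cascade. In mouse embryonic stem cells Fgf4 is the main ligand that the cells make for themselves, and its signal through ERK prepares them to leave the naive state. Heparan sulfate is carried by core proteins: glypicans are held in the membrane by a lipid anchor, and syndecans span it.

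Levels are given in FPKM, which divides the fragments of a gene by its length and by library size. Whether that length was limited to coding sequence is not given, so comparisons of level between genes are approximate. The length cancels when the same gene is compared between libraries. The libraries differed in depth with treatment: relative to DMSO replicate 1, the depth read from the values was 0.464 in PD replicate 1, 0.201 in PD replicate 2 and 1.42 in DMSO replicate 2. The median protein-coding gene with reads in every library had 29 and 12 recovered reads in the PD libraries and 62 and 90 in the DMSO libraries. All 10 embryonic stem cell markers examined were tested: 3 (Nanog, Zfp42 and L1td1) lay above DMSO in both PD libraries, 1 (Sox2) lay below and 6, among them Pou5f1, overlapped. Over all genes tested, 17.5% lay above and 18.3% below in this way. Pou5f1 was at 247 and 228 FPKM in PD and 326 and 245 FPKM in DMSO, and Nanog was at 136 and 116 FPKM in PD and 70.0 and 57.1 FPKM in DMSO. Summed feeder and fibroblast markers stood at 82.9 and 83.7 FPKM in PD and 88.6 and 105 FPKM in DMSO, nearly all of it from fibronectin (Fn1). Fn1 lay below DMSO in both PD libraries. Thy1, the other tested marker of this list, lay above, at 1.82 and 2.10 FPKM in PD and 1.13 and 1.49 FPKM in DMSO. S100a4, Postn and Lum were listed at 0 throughout. Summed primitive endoderm markers stood at 50.4 and 46.3 FPKM in PD and 83.2 and 82.2 FPKM in DMSO, from the laminin genes Lama1 and Lamb1 and the collagen gene Col4a1, with Gata6 listed at 0 in every library and Gata4, Sox17 and Sox7 at no more than 0.456 FPKM. Of these, Lamb1 was at 23.3 and 30.0 FPKM in PD and 58.25 and 66.3 FPKM in DMSO. Col4a1 went the other way, at 4.21 and 3.51 FPKM in PD and 0.842 and 0.999 FPKM in DMSO, and Lama1 overlapped, at 21.6 and 12.1 FPKM in PD and 22.3 and 14.5 FPKM in DMSO. Summed trophectoderm markers stood at 9.36 and 17.1 FPKM in PD and 14.2 and 23 FPKM in DMSO, mainly keratins and Tfap2c, with Cdx2 listed at 0 throughout. Krt19 lay below in both PD libraries, at 2.60 and 0.909 FPKM against 5.12 and 5.56 FPKM in DMSO, while Krt8, Krt18 and Tfap2c overlapped. The part of these cell types in the results was not tested.

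Gpc4 had the largest difference of the 9 tested genes, and the other well-covered glypican, Gpc3, differed in the opposite direction. Gpc4 footprints were at 31.1 and 25.8 FPKM in the PD libraries, against 10.7 and 8.33 FPKM in the DMSO libraries. Both PD libraries lay above both DMSO libraries, and the group means of 28.5 ± 3.81 FPKM in PD and 9.51 ± 1.66 FPKM in DMSO (SD, n = 2 each) gave a ratio of 2.99. Gpc3 was at 31.1 and 19.2 FPKM in the PD libraries, against 54.0 and 41.6 FPKM in the DMSO libraries. Here both PD libraries lay below both DMSO libraries, with means of 25.2 ± 8.41 FPKM in PD and 47.8 ± 8.84 FPKM in DMSO (SD, n = 2 each) and a ratio of 0.526. In bulk libraries fewer cells with a gene and less of it per cell cannot be told apart. Glypicans set the reach of secreted signals at the cell surface, and loss of human GPC3 causes an overgrowth syndrome.

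**Figure D1:**
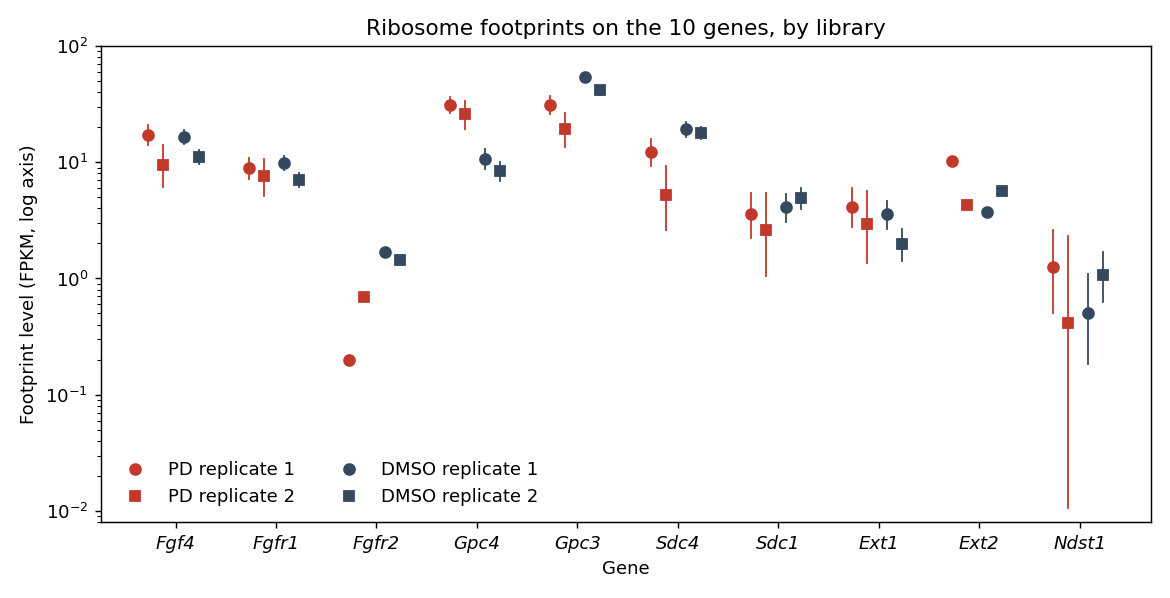
Footprint level in FPKM (log axis) of the 10 genes in each library, PD in red and DMSO in blue, with circles for replicate 1 and squares for replicate 2. Bars are 95% Poisson intervals from recovered reads and cover counting error only; Fgfr2 and Ext2 have none because whole reads were not recovered. Gpc4 sits at 25.8 to 31.1 FPKM in PD and 8.33 to 10.7 FPKM in DMSO, while Gpc3, Sdc4 and Fgfr2 are lower in both PD libraries than in both DMSO libraries.

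Gpc3 and Gpc4 are neighbours on the X chromosome, and their levels were far apart in DMSO and overlapped in PD. Per the deposited loci (mm10), Gpc4 spans 52053018 to 52164923 and Gpc3 spans 52272427 to 52619047 on chromosome X, with 107504 bases between them. The deposited span of Gpc3 is shared with the long non-coding RNA A630012P03Rik and the miRNAs Mir6384 and Mir717, all listed at 0, and so reaches beyond the Gpc3 start used below. Dividing Gpc4 by Gpc3 within a library removes any scaling of the library, and gave 1.00 and 1.34 in the PD libraries against 0.198 and 0.200 in the DMSO libraries. Gpc4 over Sdc4 was 2.56 and 4.93 in PD and 0.558 and 0.467 in DMSO. For Gpc4 over Gpc3, the lowest PD ratio was 4.99 times the highest DMSO ratio. This ratio and the others below were chosen after the values were seen, and with 2 libraries against 2 an exact two-sided permutation test cannot go below p = 0.333, so none was run. Of the 9 protein-coding genes within 1 Mb of Gpc4, 4 were tested. Besides Gpc3 these were Ccdc160, Phf6 and Hprt, whose groups all overlapped. Over all genes tested, 35.8% did not overlap. Within 1 Mb of Gpc3, 6 protein-coding genes were tested: 2, Gpc4 and Mospd1, lay above in both PD libraries and the others overlapped. Mospd1 was at 5.39 and 1.96 FPKM in PD and 1.05 and 1.67 FPKM in DMSO. Of the non-coding genes within 1 Mb of Gpc4, Mir351 and Mir322 lay above, Mir92-2 and Kis2 below, and the rest overlapped.

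To show where transcription of these genes starts, the promoters of both glypicans and of Sdc4, the syndecan with the largest difference, are given from RefSeq (GRCm38.p6, 250 bases before to 50 after the start, 300 in all). All are on the minus strand and are written 5′ to 3′ as that strand reads, at chrX:52164874-52165173 for Gpc4, chrX:52613925-52614224 for Gpc3 and chr2:164443139-164443438 for Sdc4. Capitals mark the GC box GGGCGG on either strand, the core of the site that Sp1-type factors bind.
Gpc4: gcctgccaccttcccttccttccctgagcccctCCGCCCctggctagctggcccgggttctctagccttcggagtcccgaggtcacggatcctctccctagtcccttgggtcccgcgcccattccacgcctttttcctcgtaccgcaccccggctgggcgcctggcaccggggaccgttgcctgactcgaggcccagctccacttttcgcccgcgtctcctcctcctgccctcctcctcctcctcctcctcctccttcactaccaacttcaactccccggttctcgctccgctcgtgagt
Gpc3: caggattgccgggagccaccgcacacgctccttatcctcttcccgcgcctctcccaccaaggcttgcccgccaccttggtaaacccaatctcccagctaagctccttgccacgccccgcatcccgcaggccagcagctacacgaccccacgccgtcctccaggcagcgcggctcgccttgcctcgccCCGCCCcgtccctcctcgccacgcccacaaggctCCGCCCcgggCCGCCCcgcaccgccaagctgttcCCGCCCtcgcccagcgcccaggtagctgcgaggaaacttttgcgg
Sdc4: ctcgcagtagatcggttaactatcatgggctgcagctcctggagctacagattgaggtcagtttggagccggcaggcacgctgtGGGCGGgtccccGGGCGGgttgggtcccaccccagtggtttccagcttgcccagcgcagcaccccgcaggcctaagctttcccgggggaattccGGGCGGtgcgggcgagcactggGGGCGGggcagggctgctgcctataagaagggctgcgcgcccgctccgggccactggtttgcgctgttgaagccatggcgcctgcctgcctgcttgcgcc

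Gpc4 holds 1 GC box in this window, Gpc3 holds 4 and Sdc4 holds 4. Over all 32851 promoters of that length in the table, 35.7% hold at least 1. CpG dinucleotides numbered 22 in Gpc4, 30 in Gpc3 and 22 in Sdc4, against a median of 7 over all promoters. The ETS core CCGGAA, searched on both strands because ETS factors are targets of ERK, occurred in Sdc4 and in neither glypican, and 14.9% of all promoters hold it. RefSeq promoters were found for 7 of the 10 genes; Fgfr1, Ext1 and Ndst1 were not matched. These matches describe letters in a window and say nothing of binding.

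Of the 4 syndecans, Sdc4 and Sdc1 were tested. Sdc4, which binds heparin-binding growth factors and sits at focal adhesions, was at 12.2 and 5.22 FPKM in PD against 19.1 and 17.8 FPKM in DMSO (chromosome 2, 164424247 to 164443188). Its DMSO libraries were close to each other, whereas the PD libraries differed from each other more than 2-fold, and the groups did not overlap. Sdc1, the main syndecan of epithelial cells, was at 3.59 and 2.63 FPKM in PD against 4.09 and 4.92 FPKM in DMSO (chromosome 12, 8771396 to 8793687), again without overlap but with a gap smaller than its spread within either group. Sdc2 was at 0 and 1.38 FPKM in PD and 0.139 and 0.392 FPKM in DMSO, and Sdc3 reached at most 0.136 FPKM, so neither was tested. Dividing Sdc1 by Sdc4 within a library gave 0.295 and 0.503 in PD and 0.214 and 0.276 in DMSO.

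Summed over the 6 glypican and 4 syndecan genes of the mouse, core protein footprints came to 83.6 and 57.5 FPKM in PD and 95.3 and 76.8 FPKM in DMSO, so the groups overlapped. The shares below restate the levels given above, for genes chosen with this contrast known, so nothing further is read from them. They also add FPKM across genes, which is approximate. Gpc4 made up 37.3% and 44.8% of that sum in the PD libraries and 11.2% and 10.9% in the DMSO libraries, and Gpc3 made up 37.2% and 33.4% in PD and 56.7% and 54.1% in DMSO. The 4 syndecans together contributed 18.9% and 16.1% in PD and 24.7% and 30.2% in DMSO.

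Fgf4, the ligand, did not separate the groups. It was at 17.1 and 9.48 FPKM in PD against 16.6 and 11.05 FPKM in DMSO (chromosome 7, 144861386 to 144865245), and in each group the libraries differed from each other by far more than the group means of 13.3 and 13.8 FPKM did. The log2 difference was -0.08 with a 95% interval from -1.16 to 1.00, so a 2-fold difference either way lies within that interval or at its edge. Fgf15, a ligand gene 31287 bases from Fgf4, was at 6.09 and 1.34 FPKM in PD and 6.86 and 4.65 FPKM in DMSO. Footprints of Fgf4 divided by those of its receptor Fgfr1 gave 1.92 and 1.26 in PD and 1.67 and 1.56 in DMSO.

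The receptors differed from each other in level. Fgfr1 had 8.89 and 7.53 FPKM in PD and 9.91 and 7.06 FPKM in DMSO (chromosome 8, 25518759 to 25575718), and each PD value lay between the DMSO values. The fitted log2 difference of Fgfr1 was -0.03 ± 0.29 (SE). Fgfr2 was much lower, at 0.200 and 0.692 FPKM in PD against 1.67 and 1.43 FPKM in DMSO (chromosome 7, 130162451 to 130266808), and the groups did not overlap. Fgfr2 over Fgfr1 was 0.0225 and 0.0919 in PD and 0.169 and 0.203 in DMSO. In every library Fgfr1 was thus the more covered receptor. Fgfr3 reached at most 0.285 FPKM, and Fgfr4 had no footprint signal listed in PD and 0.220 and 0.104 FPKM in DMSO, so neither was tested.

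Ext1 and Ext2, which together form the polymerase that extends the heparan sulfate chain, overlapped between groups. Ext1 was at 4.14 and 2.96 FPKM in PD and 3.58 and 1.96 FPKM in DMSO (chromosome 15, 53068261 to 53346183). Ext2 was at 10.3 and 4.30 FPKM in PD and 3.72 and 5.68 FPKM in DMSO (chromosome 2, 93695631 to 93822568), with PD replicate 1 the only library above 6 FPKM. The ratio of Ext2 to Ext1 was 2.49 and 1.45 in PD and 1.04 and 2.89 in DMSO, so the DMSO values enclosed the PD values. Ndst1 removes acetyl groups from the chain and adds sulfate in their place, the first step of its modification. It was at 1.27 and 0.417 FPKM in PD and 0.504 and 1.07 FPKM in DMSO (chromosome 18, 60684494 to 60748665), from 7 and 1 recovered reads in PD and 6 and 18 in DMSO, and it was too thinly covered to compare.

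**Figure D2:**
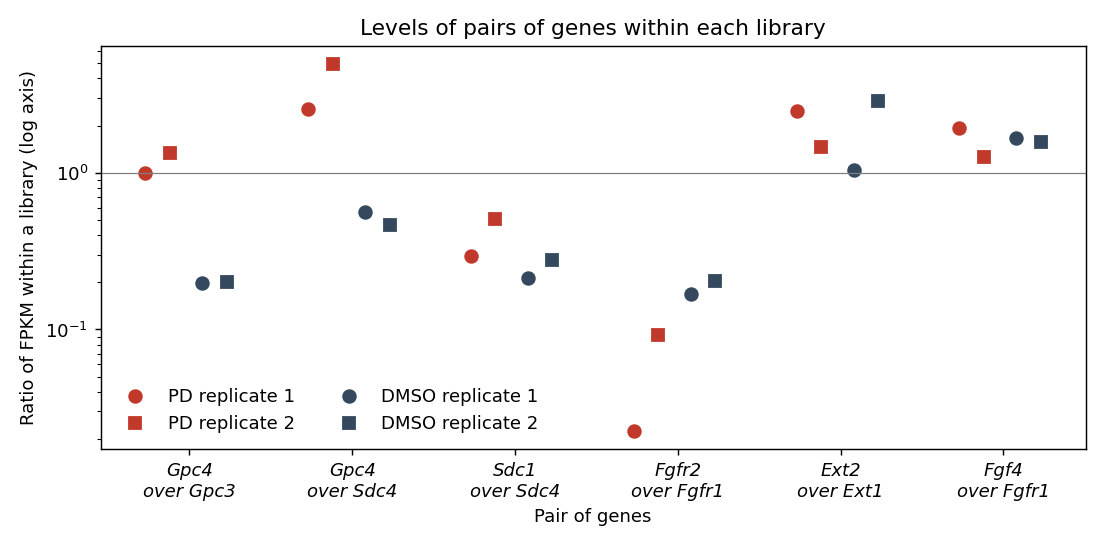
Ratio of the FPKM of 2 genes within each library (log axis), PD in red left of DMSO in blue, circles for replicate 1 and squares for replicate 2. Gpc4 over Gpc3 is 1.00 and 1.34 in PD and 0.198 and 0.200 in DMSO, whereas Ext2 over Ext1 and Fgf4 over Fgfr1 overlap between groups.

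In PD the order of levels was Gpc4, Gpc3, Fgf4, Sdc4, Fgfr1, Ext2, Ext1, Sdc1, Ndst1 and Fgfr2. In DMSO it was Gpc3, Sdc4, Fgf4, Gpc4, Fgfr1, Ext2, Sdc1, Ext1, Fgfr2 and Ndst1. Among neighbours in the PD order, the ranges over libraries were apart between Gpc3 and Fgf4, between Ext2 and Ext1 and between Sdc1 and Ndst1, and overlapped for the other pairs. In the DMSO order they overlapped between Gpc4 and Fgfr1 and between Ext2 and Sdc1 and were apart for all other pairs. Gpc4 lay above 82.0% of the tested protein-coding genes in PD and above 60.05% in DMSO, and Gpc3 above 80.1% in PD and 88.9% in DMSO.

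Recovered reads show how much of this is counting error. Gpc4 had 142 and 51 reads in PD and 105 and 116 in DMSO. The exact Poisson 95% intervals of its level, which cover counting error only, were 26.2 to 36.7 and 19.2 to 33.9 FPKM in PD and 8.74 to 12.9 and 6.88 to 9.99 FPKM in DMSO. Those of Gpc3, from 138 and 37 reads in PD and 517 and 563 in DMSO, were 26.1 to 36.8 and 13.5 to 26.5 FPKM in PD and 49.5 to 58.9 and 38.2 to 45.1 FPKM in DMSO. For both glypicans the PD and DMSO intervals were apart, but the DMSO intervals of Gpc3 were also apart from each other, so replicates differed by more than counting error there. Sdc4 rested on 59 and 11 reads in PD and 200 and 264 in DMSO, and its PD interval ended at 15.7 FPKM for replicate 1, at about the point where the lower DMSO interval began. Read recovery returns the smallest counts that fit, so actual counts could be larger and these intervals narrower.

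The confidence intervals that the authors deposited are wider. For Gpc4 they ran from 16.7 to 45.6 and from 13.6 to 38.0 FPKM in PD and from 4.6 to 16.8 and from 3.17 to 13.5 FPKM in DMSO, and both PD intervals overlapped that of DMSO replicate 1. None of the 10 genes had deposited intervals that were apart between every PD and every DMSO library. Over all genes tested this held for 8 genes, or 0.0821%, with 0.0513% above in PD and 0.0308% below.

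The fit between the groups used limma on log2(FPKM + 1) over the 9741 genes that averaged 1 FPKM or more, with p-values adjusted by Benjamini-Hochberg over all of them. 9 of the 10 genes entered it; Fgfr2 passed the filter with a mean of 1.0 FPKM, through its DMSO libraries, and Ndst1 was left out at 0.814 FPKM. 0 of the 9 passed the threshold of 0.05, and the background was 0.257% of all genes (25 genes, none of them protein-coding), with 0.0308% higher and 0.226% lower in PD. At an unadjusted p under 0.05 the count was 1 of 9, Gpc4, against 5.76% of all genes and 5.15% of protein-coding ones. Since the 10 genes were chosen with this contrast known, nothing is read from either count. The log2 difference of Gpc4 was 1.49 with an SE of 0.27 and a 95% interval from 0.75 to 2.23 (limma adjusted p = 0.641), which ranked 53 among 8897 protein-coding genes by signed difference. The differences were -1.10 for Sdc4 (SE 0.44), -0.93 for Gpc3 (SE 0.35), -0.84 for Fgfr2 (SE 0.41) and -0.43 for Sdc1 (SE 0.30), each with a limma adjusted p of 0.837. Ext1 and Ext2 had differences of 0.29 (SE 0.37) and 0.46 (SE 0.48).

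**Figure D3:**
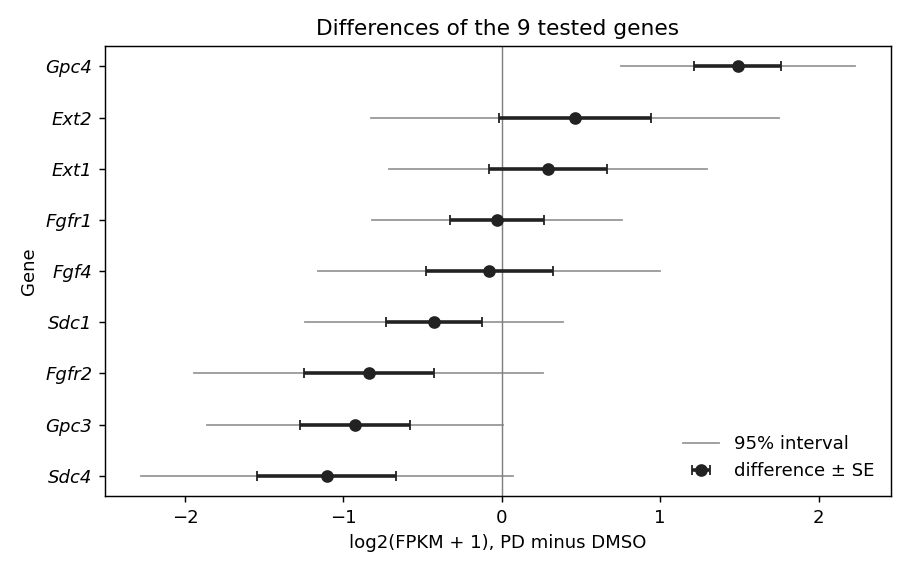
Difference in log2(FPKM + 1), PD minus DMSO, of the 9 tested genes, with the SE as thick bars and the unadjusted 95% interval of the fit as thin lines. Gpc4 lies at 1.49, and Sdc4, Gpc3 and Fgfr2 lie at -1.10, -0.93 and -0.84; none passed after adjustment over all genes.

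Of the 9 tested genes, 1 lay above DMSO in each PD library, 4 lay below and 4 overlapped. Fgfr2, among the 4 below, passed the filter through its DMSO libraries alone, so its place there is partly set by the filter. Over all genes tested the groups did not overlap for 35.8%, with 17.5% above and 18.3% below. The median log2 difference of the 9 genes was -0.08, against -0.02 over all genes tested. PD replicate 2, the shallowest library, lay below PD replicate 1 for 9 of the 10 genes, Fgfr2 being the exception, where this held for 49.8% of all genes tested. DMSO replicate 2, the deepest library, also lay below DMSO replicate 1 for 7 of the 10 genes, against 50.6% of all genes tested. The median ratio of PD replicate 2 to PD replicate 1 was 0.666 for the 10 genes and 0.971 for the tested protein-coding genes. The lower values of Sdc4 and Gpc3 in PD rest in part on that library: without PD replicate 2 their log2 differences were -0.56 and -0.59, and without PD replicate 1 they were -1.65 and -1.26. For Gpc4 the same differences were 1.62 and 1.36, and for Sdc1 they were -0.26 and -0.60. The value of Fgfr2, which is near the filter, depended on the scale, with -1.76 at a pseudocount of 0.1 and -1.47 after rescaling to protein-coding genes. It was smaller with quantile normalization, at -0.62, and without PD replicate 1, at -0.59.

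The 3 protein-coding genes whose pattern over the 4 libraries lay nearest to that of Gpc4 were Rpl39l, F2rl1 and Ncam1. Likeness was the Euclidean distance of centred log2(FPKM + 1), and the 5025 genes averaging 5 FPKM or more were compared. F2rl1, a protease-activated receptor, was at 44.7 and 42.0 FPKM in PD and 18.9 and 16.1 FPKM in DMSO, at a distance of 0.269. Ncam1, an adhesion molecule that can act with FGF receptors, was at 11.04 and 9.39 FPKM in PD and 3.79 and 3.48 FPKM in DMSO, at a distance of 0.275. Rpl39l, at 94.9 and 62.2 FPKM in PD and 27.9 and 24.5 FPKM in DMSO, lay at 0.261, but as a near copy of another ribosomal protein gene its count is uncertain.

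The rest of the pathway was read from lists of 119 further genes, of which 43 were tested and 0 passed (limma, Benjamini-Hochberg over all genes). Both PD libraries lay above both DMSO libraries for 3 of the 43 and below for 10, beside 17.5% and 18.3% of all genes. Some of the 10 below, Fgf18 among them, passed the filter through their DMSO libraries alone, so their place is partly set by it. The median log2 difference of the 43 was -0.24, against -0.02 over all genes tested. 10 of the 43 had a positive and 33 a negative difference. The lists were drawn up with earlier results of these data known, so nothing is read from that count.

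Among the 22 FGF ligand genes, 5 were tested and 4 were listed at 0 in every library. After Fgf4, the ligand with the highest level was Fgf17, at 8.33 and 5.90 FPKM in PD and 12 and 7.86 FPKM in DMSO. In PD, Fgf18 was listed at 0 in each library, against 3.56 and 1.03 FPKM in DMSO from 22 and 9 recovered reads. Of the receptor partners, Fgfbp1, a carrier that releases FGFs from the matrix, had the highest level, at 5.14 and 7.53 FPKM in PD and 16.0 and 5.66 FPKM in DMSO.

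Of the 9 tested receptor adaptors, 4 were lower in both PD libraries, 1 was higher and 4 overlapped, beside 18.3% below and 17.5% above over all genes tested. Their median log2 difference was -0.29. Gab1, a docking protein below many receptor kinases, was the most covered, at 62.0 and 60.8 FPKM in PD and 51.9 and 54.5 FPKM in DMSO. Frs2, the docking protein specific to FGF and neurotrophin receptors, was at 1.020 and 1.17 FPKM in PD and 1.42 and 1.53 FPKM in DMSO. Plcg1, the phospholipase that FGF receptors bind directly, was at 3.96 and 2.53 FPKM in PD and 4.54 and 8.61 FPKM in DMSO. Grb2 had the lowest difference of the list, -1.395 with an SE of 0.82. It was listed at 0 in PD replicate 2, the shallowest library, but at 3.6 FPKM in PD replicate 1, against 3.8 and 5.62 FPKM in DMSO.

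Of the other core proteins, 3 secreted ones were tested. Col18a1, a basement membrane collagen that carries heparan sulfate, was at 49.9 and 34.6 FPKM in PD and 75.5 and 57.6 FPKM in DMSO, from 156 to 1828 recovered reads, and its groups did not overlap. Perlecan (Hspg2) was at 37.5 and 27.2 FPKM in PD and 38.9 and 31.4 FPKM in DMSO, and agrin (Agrn) at 22.8 and 16.4 FPKM in PD and 21.5 and 20.1 FPKM in DMSO. Of the other glypicans and syndecans, Gpc1 and Gpc2 were tested, and their log2 differences were -0.08 and -0.27.

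Enzymes that start, modify and trim the chain overlapped between groups in most cases, as did most genes tested (35.8% did not overlap). Of the 6 tested genes of remodelling and turnover, 2 lay below in both PD libraries and 4 overlapped. Xylt2, which attaches the first sugar to the core protein, was at 4.05 and 5.99 FPKM in PD and 3.55 and 2.65 FPKM in DMSO, and was the only one of 3 tested linker enzymes without overlap. B3gat3, which completes the linker, was at 3.71 and 0.776 FPKM in PD and 4.53 and 2.43 FPKM in DMSO. The 3 tested modifying enzymes, Glce, Hs2st1 and Hs6st1, all overlapped, with log2 differences from -0.12 to 0.16. Of the 8 tested genes of precursor supply, 7 overlapped, among them Ugdh, which makes the glucuronic acid donor, Ugp2 and Slc35b3. Sulf1 and Sulf2 remove 6-O-sulfate from the finished chain, which lowers FGF signalling. Sulf1 was at 14.4 and 6.94 FPKM in PD and 20.2 and 11.4 FPKM in DMSO, and Sulf2 was at 21.0 and 27.8 FPKM in PD and 22.6 and 21.9 FPKM in DMSO, so both overlapped. Notum, a secreted hydrolase and the most covered gene of the remodelling and turnover list, was at 33.6 and 32.5 FPKM in PD and 35.1 and 24.8 FPKM in DMSO.

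The chondroitin and dermatan sulfate enzymes use the same linker for other chains. Dse, an epimerase of dermatan sulfate, was at 12.2 and 11.8 FPKM in PD and 5.65 and 8.47 FPKM in DMSO and did not overlap. Chst12, the most covered of the list, overlapped, as did Chpf2, which had the lowest difference. Of the 4 tested genes, 1 lay above, 1 lay below and 2 overlapped, beside 17.5% above and 18.3% below over all genes tested. Their median log2 difference was -0.02.

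**Figure D4:**
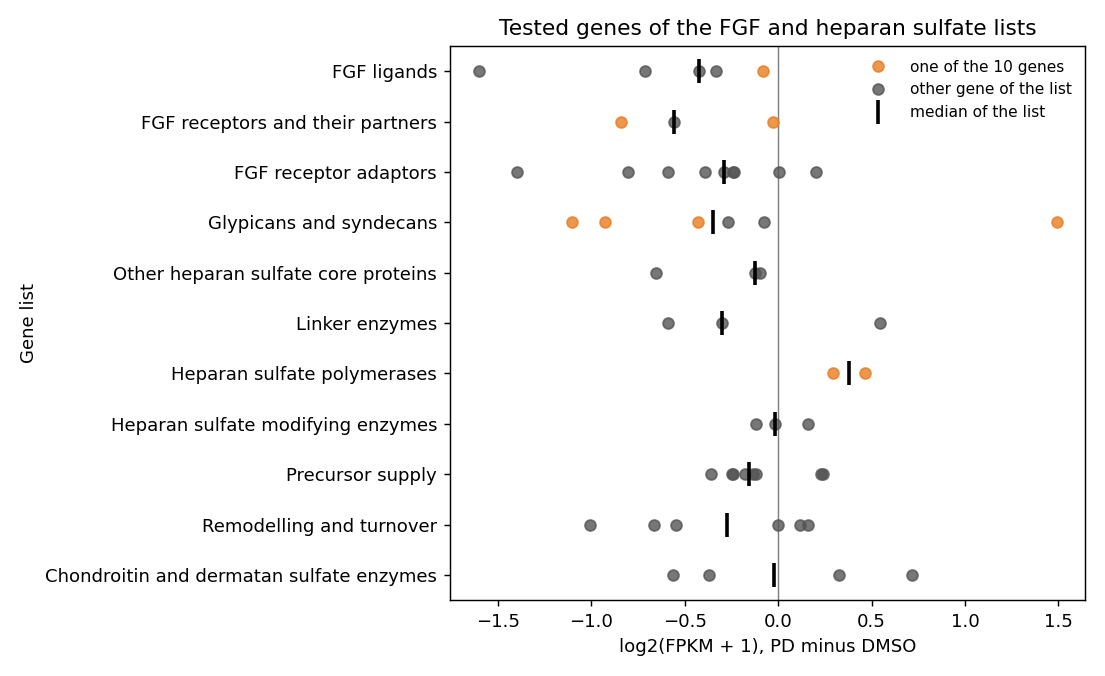
Difference in log2(FPKM + 1), PD minus DMSO, of each tested gene of the FGF and heparan sulfate lists. The 9 tested of the 10 genes are in orange, other genes in grey and the list median is a black bar. Gpc4 at 1.49 stands to the right of every other tested gene, and the medians of 10 of the 11 lists lie below 0, those of the modifying and chondroitin enzymes, at -0.01 and -0.02, beside the median of -0.02 over all genes tested. Leaving out 1 library turned the medians of 5 lists above 0.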

How the data were processed

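The deposited values are FPKM per gene and library with lower and upper bounds, and the file headers have a Cufflinks layout. Named in the submitters' processing notes are mm10, STAR, Bowtie2, Cufflinks, Trimmomatic and FastQC; versions, the handling of multi-mapped reads and any restriction to coding sequence are not given in the sources used here. 1 was added to each deposited start, after which 14629 starts equalled RefSeq's. 1 gene with a failed status was left out. Relative depth and reads were recovered from the FPKM steps, with a tolerance of 0.02 reads, for 72.7% of genes above 0 in all 4 libraries, against 2.34% with wrong steps. The main fit on log2(FPKM + 1) came from limma 3.58.1 under R 4.3.3 (lmFit, then eBayes with trend; group only; 2 residual degrees of freedom), a scale that understates fold changes of low genes. The fit and the read recovery were tested on simulated data. Named genes were all 10, each list's most covered gene and its largest difference in each direction, and the 3 patterns nearest Gpc4; Fgf17, Frs2, Plcg1, Hspg2, Agrn, Gpc1, Gpc2, Hs2st1, Sulf1, Sulf2, Fgf15, Fgfr3 and Fgfr4 were added after their values were seen. 1 gene that this rule names is not reported here. The genes and lists were chosen with earlier results of these data known.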

Additional observations from a re-analysis of the deposited data

How the results depend on the processing

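None of the 9 genes passed in any alternative. The sign of Gpc4, Gpc3, Sdc4, Sdc1 and Fgfr2 cannot turn when a library is left out, since their groups do not overlap, so it is no sign of stability. The log2 difference of Gpc4 ran from 1.33 to 1.65 over 14 alternatives (limma adjusted p from 0.39 to 1). The sign turned for Fgfr1 with quantile normalization (0.0016) and for Fgf4 (0.0383) and Fgfr1 (0.0162) with voom on recovered reads. Leaving out each library in turn gave -0.47 to 0.32 for Fgf4, -0.25 to 0.19 for Fgfr1, -0.0204 to 0.61 for Ext1 and -0.0822 to 1.008 for Ext2. It moved the median of the tested genes between -0.47 and 0.19 and the count of the 9 with every PD library above every DMSO library between 1 and 4. With a filter of 5 FPKM, 6 of the 10 genes were tested and 2 of them lay below. Of all genes, 3 higher and 22 lower passed. With protein-coding genes alone, with FPKM rescaled to them and with voom, 0 passed in either direction (limma), while unadjusted p-values under 0.05 numbered 609, 771 and 454. Leaving out each library gave 0 to 27 higher and 0 to 20 lower, where omitting either DMSO library gave 0 in both directions (344 and 416 at an unadjusted p under 0.05) and omitting PD replicate 1 gave 13 and 10. A lone library was assumed to vary like the other group. The shared numbers are not stated to pair the libraries, and the deviations of same-numbered libraries correlated at 0.099 across genes. With the replicate number as a block, 2 genes passed higher and 17 lower, and no call among the 9 genes changed. The causes were not tested. Leaving out 1 library turned list medians above 0: for receptors and partners to 0.12, linker enzymes to 0.15 and 0.13, other core proteins to 0.10, modifying enzymes to 0.15 and 0.31, and chondroitin enzymes to values from 0.10 to 0.22. Of 152 list medians under alternatives, 23 moved by more than the spread between replicates. Few reads limit Ndst1, and no reads were recovered for Fgfr2.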
